A study of Mus musculus with 20 samples.

Results

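The 10 genes Runx1, Gata2, Tal1, Lmo2, Erg, Fli1, Gfi1b, Meis1, Mecom and Hlf encode transcription factors of hematopoietic stem cells (HSCs), and their DNA methylation was followed after repeated 5-fluorouracil (5FU) treatment. Every 100 bp bin from 5 kb upstream of the first RefSeq transcription start site (TSS) to the end of each gene was taken, which gave 1208 of the 1201951 bins in the series. Methylation had been measured by reduced representation bisulfite sequencing (RRBS), in which CpG-rich fragments are selected and unmethylated cytosines are converted before sequencing. The 20 samples were HSCs of female C57BL/6 mice (substrain J) that were 3 months old at the start and received 0, 2, 4 or 10 cycles of 5FU at 150 mg per kg, given by intraperitoneal injection every 3 weeks, and HSCs (Lin- cKit+ Sca1+ CD34- Flk2- CD150+) were sorted 1 month after the last cycle. The groups are named by cycles, with 4 samples of 0x, 6 of 2x, 4 of 4x and 6 of 10x. No gene was deleted in any group, and all mice shared strain and sex. The labels give the tissue as blood and the methods as bone marrow, and they do not say whether each sample is a separate mouse, so p-values measure the spread between samples, which may be technical.

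These factors maintain the stem cell state and start lineage programmes together. RUNX1, GATA2, TAL1, LMO2, ERG and FLI1 bind the same enhancers in blood stem and progenitor cells, with LMO2 bridging partners rather than binding DNA itself. Methylation of CpG-rich promoters is linked to silencing, whereas the bodies of expressed genes are commonly methylated, and many of these genes start from several promoters.

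The promoters differ in how many CpG sites they offer to RRBS. The distal and the proximal promoter of Runx1, which encodes the DNA-binding subunit of core-binding factor, show the range. The sequences run from 250 bases before to 50 bases after the TSS in the direction of transcription (RefSeq, GRCm38.p6, minus strand), and capitals mark CpG sites.
Runx1 distal promoter, chr16:92826025-92826324: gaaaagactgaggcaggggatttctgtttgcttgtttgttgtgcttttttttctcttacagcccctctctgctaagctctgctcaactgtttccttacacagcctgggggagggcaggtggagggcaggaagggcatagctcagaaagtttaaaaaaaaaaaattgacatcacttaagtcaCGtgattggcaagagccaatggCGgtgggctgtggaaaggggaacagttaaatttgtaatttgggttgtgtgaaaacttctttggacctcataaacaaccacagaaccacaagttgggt
Runx1 proximal promoter, chr16:92697280-92697579: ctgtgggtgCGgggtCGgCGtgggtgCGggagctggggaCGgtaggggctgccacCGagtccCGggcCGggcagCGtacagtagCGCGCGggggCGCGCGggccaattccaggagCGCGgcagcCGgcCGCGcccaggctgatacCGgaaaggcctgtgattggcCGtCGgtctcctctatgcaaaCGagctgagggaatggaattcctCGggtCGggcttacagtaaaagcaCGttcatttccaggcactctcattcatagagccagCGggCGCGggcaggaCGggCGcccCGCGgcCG
The distal window holds 2 CpG sites and no bin, and the proximal window holds 35 CpG sites and 4 bins, of which 1 is without a repeated value. Of the 10 genes, 8 matched the RefSeq promoter table, with 14 promoters. The median over all 32851 promoters in that table is 7 CpG sites, and the windows of Gata2 (32 and 29), Hlf (30) and Tal1 (22) are well above it.

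Few of the bins allowed a test. Missing bins had been filled with the mean of the group, and the filled values are not marked. A value other than 0 or 100 that recurred exactly within a group was therefore taken as repeated, which affected 491 of the 1208 bins. A fill in only 1 sample of a group cannot recur, and a fill at 0 or 100 was not counted. The tested bins can therefore still hold filled values. Another 419 bins had the same value, 0 or 100, in all 20 samples, and in 216 a group was at 0 or 100 throughout. In 82 bins (6.79%) every group varied and no value other than 0 or 100 recurred within a group, and these were tested. They lay in promoters (23 of 187), gene bodies (53 of 953) and the flank 1 to 5 kb upstream (6 of 68). In them 36.6% of the 0x values, 54.3% of 2x, 36.0% of 4x and 34.1% of 10x were at 0 or 100. Over all tested bins of the series the shares were 38.6%, 56.0%, 35.6% and 31.5%. A promoter bin lies within 1 kb of any TSS of the gene, and a gene body bin lies further in. Among promoters, Erg, Gfi1b and Hlf had no testable bin, and among gene bodies Lmo2 had none. The 82 bins held 5.21 CpG sites on average, against 2.49 in bins equal in all samples and 3.30 in bins with repeated values. The same order was seen over the whole series, with 5.63, 2.22 and 3.09. The plot of bins by kind of value shows how the share of testable bins varies between genes.

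**Figure D1:**
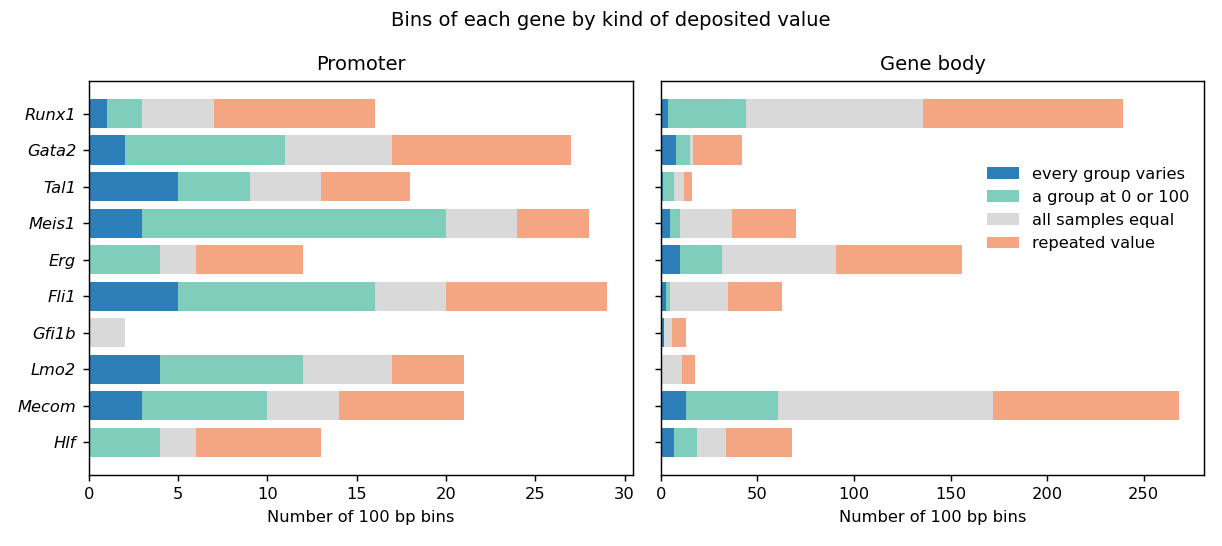
Number of 100 bp bins (x axis) for each gene (y axis) in the promoter (left) and gene body (right), split by kind of deposited value. Bins in which every group varies make up 23 of 187 promoter bins and 53 of 953 gene body bins.

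The promoters of the 10 genes had low methylation in every group. Over all 187 promoter bins the 0x mean was 7.80% ± 0.82 (SD, n = 4), the 2x mean 7.18% ± 0.33 (n = 6), the 4x mean 6.28% ± 0.36 (n = 4) and the 10x mean 6.89% ± 0.50 (n = 6). In 0x, 166 of the 187 bins were under 20% and 5 were over 80%. Without the bins with repeated values, the means were 3.27%, 1.62%, 2.75% and 2.43% over 126 bins. Of these, 37 were equal in all samples. In 66 a group was at 0 or 100 throughout, which cannot be separated from filled values. The level is a mean over the sorted cells, so a change in which cells were sorted and a change within cells cannot be told apart.

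Among the factors of the shared enhancer complex, the promoters of Runx1 (3.33% in 0x), Tal1 (4.21%), which encodes a basic helix-loop-helix factor, and Gata2 (5.76%), a zinc finger factor needed for HSC emergence, were low. Erg (7.91%) and Fli1 (8.97%), both ETS factors, were at higher levels, and Lmo2 was at 13.9%. Meis1, a homeodomain cofactor of HOX proteins, was at 2.31% and Hlf, a bZIP factor that marks HSCs, at 2.50%. Gfi1b, a zinc finger repressor of erythroid and megakaryocytic development, was at 0 in all 20 samples, over only 2 bins. Mecom, whose EVI1 and MDS1-EVI1 products sustain self-renewal, had the highest level at 20.4%. In 0x, Meis1, Hlf, Runx1, Tal1 and Gata2 could not be ordered beyond their spread, since the ranges of neighbouring genes overlapped. Mecom (18.8% to 21.4%) was separate from Fli1 (8.26% to 10.1%), whereas Lmo2 (10.3% to 18.97%) overlapped Mecom. This order rests on all bins. Without the bins with repeated values, Hlf was at 0%, Gata2 at 1.13%, Runx1 at 1.26%, Fli1 at 1.28%, Erg at 1.39%, Tal1 at 2.28%, Meis1 at 2.57%, Lmo2 at 7.67% and Mecom at 9.13% in 0x, so that Erg and Fli1 were no longer above Tal1 and Meis1. Over 18564 genes with at least 5 promoter bins, with all bins taken, the median was 13.2%. The 9 genes with that many stood above 20.9% (Meis1) to 60.7% (Mecom) of them.

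The alternative promoters of a gene differed in level. At Mecom, the promoter at the start of the gene (11 bins) was at 13.5% in 0x and the internal one that yields the EVI1 form (7 bins) at 2.64%. A predicted TSS between them (3 bins, all with repeated values) was at 87.4% (0x), 90.3% (2x), 64.2% (4x) and 94.9% (10x). At Lmo2, the distal promoter was at 47.4% in 0x (31.1% to 71.1%, 5 bins) and the proximal one at 3.48% (2.69% to 3.81%, 16 bins). The distal level was 42.2% after 2 cycles, 21.7% after 4 and 37.2% after 10, but only 2 of its 5 bins are without repeated values. In those 2 bins it was at 40.9% in 0x, with samples from 0% to 100%, at 0% in all samples of 2x and 4x and at 0.77% in 10x (0% to 3.97%). Neither bin was tested, since groups at 0 throughout cannot be separated from filled values. At Fli1, both promoters at the gene start were at 1.91% and 0.88% in 0x, and a predicted internal TSS, with repeated values in all 4 of its bins, was at 56.2%. Both promoters of Runx1 were low in 0x, at 2.46% (distal, 5 bins) and 3.73% (proximal, 11 bins), as were both of Gata2, at 7.09% and 4.52%. Erg had 5 promoters, of which 2 had no bin.

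**Figure D2:**
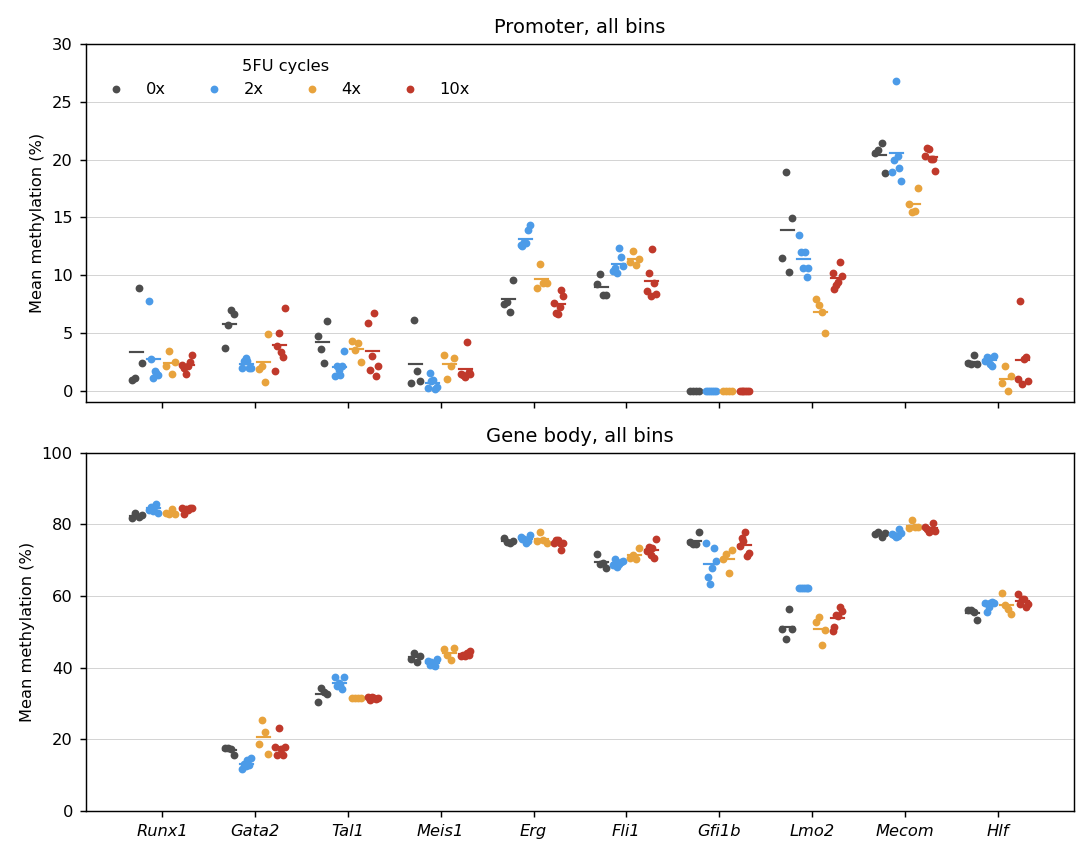
Mean methylation (y axis, %) over all bins of the promoter (top) and gene body (bottom) of each gene (x axis). Each point is a sample, coloured by number of 5FU cycles, and bars are group means. The promoters stay at or under 26.8% in every sample, while gene bodies range from 11.6% in Gata2 to 85.7% in Runx1.

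The gene bodies were mostly methylated, with large differences between genes. Over all 953 bins the 0x mean was 69.7% ± 0.36 (SD, n = 4), the 2x mean 70.3% ± 0.42 (n = 6), the 4x mean 71.1% ± 0.65 (n = 4) and the 10x mean 71.1% ± 0.22 (n = 6). Without the 402 bins with repeated values the means were 75.5%, 76.0%, 75.8% and 75.4%, so that the 10x mean was no longer above the 0x mean. Of the 551 bins left, 356 were equal in all samples. In 142 a group was at 0 or 100 throughout, which cannot be separated from filled values. In 0x, Runx1 was at 82.4%, Mecom at 77.3%, Gfi1b and Erg at 75.4%, Fli1 at 69.4%, Hlf at 55.2%, Lmo2 at 51.4%, Meis1 at 42.9%, Tal1 at 32.6% and Gata2 at 17.02%. In that order, which rests on all bins, the 0x samples of neighbouring genes overlapped between Mecom and Gfi1b, Gfi1b and Erg, and Hlf and Lmo2, and were separate elsewhere. Without the bins with repeated values, Gfi1b (90.8%), Runx1 (88.2%), Erg (84.7%), Fli1 (80.9%) and Mecom (79.7%) were highest, followed by Hlf (56.1%), Lmo2 (54.5%), Meis1 (46.9%), Tal1 (34.5%) and Gata2 (10.1%). With all bins taken, all 10 were below the median of 87.9% over 20874 genes with at least 5 gene body bins. Runx1 stood above 32.2% of those genes, and Gata2, Tal1, Meis1, Lmo2 and Hlf above 2.26%, 3.87%, 5.31%, 6.95% and 7.96%. Gata2 and Tal1 also had more CpG sites per gene body bin (4.64 and 5.19) than all genes (2.40), whereas Meis1 (2.77), Hlf (2.44) and Lmo2 (1.89) were near that value.

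The level rose with distance from the nearest TSS. In 0x, the mean over the 10 genes was 23.4% between 1 and 2 kb (68 bins), 39.5% between 2 and 5 kb (95 bins), 64.5% between 5 and 10 kb (111 bins) and 79.4% beyond (679 bins). CpG sites per bin fell over the same distances, from 5.15 to 3.32, 2.74 and 2.35. The genes differed in how far low methylation reached. In Meis1, all 13 bins between 5 and 10 kb were under 20% in 0x, with a mean of 2.73%. In Gata2, all 15 bins between 2 and 5 kb were under 20% (mean 5.77%), and in Tal1 all 9 (mean 2.99%). In Hlf, 7 of 8 bins between 2 and 5 kb were (mean 3.98%). In Runx1, in contrast, 1 of 14 bins between 2 and 5 kb was under 20%, and the mean was 74.4%. The treated groups followed the same profile, with means beyond 10 kb of 80.2% (2x), 81.2% (4x) and 81.2% (10x). All values by distance rest on all bins, and bins with repeated values were not separated there. Bins of coding exons in gene bodies were at 61.9% in 0x and held 5.56 CpG sites on average, against 70.1% and 2.50 in introns. RefSeq places other genes over some of these bins or within 5 kb of them. Among these were Gm38708 at 75 bins of Gata2, Gm16141 at 43 of Meis1 and Gm38515 at 31 of Lmo2. Methylation cannot be assigned to one of overlapping or neighbouring genes.

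**Figure D3:**
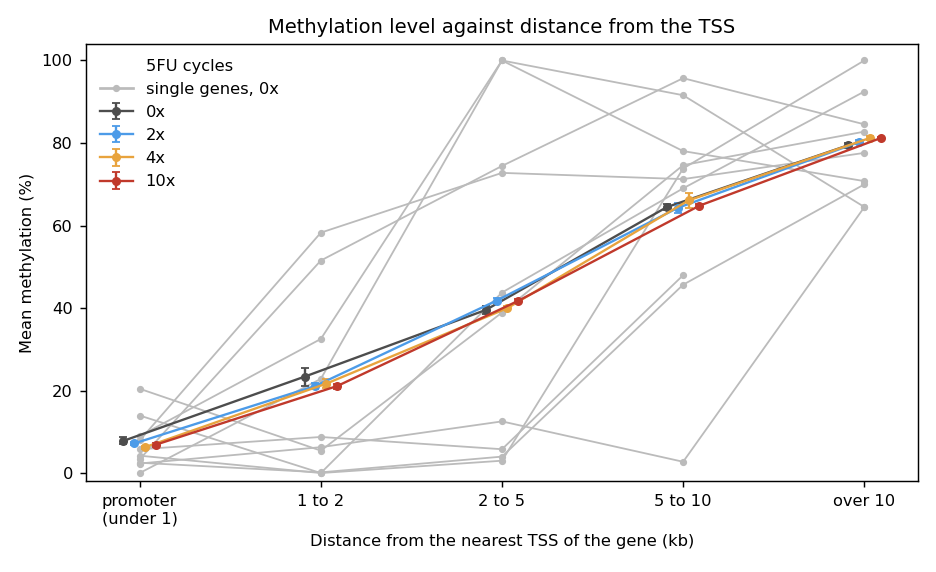
Mean methylation (y axis, %) against distance from the nearest TSS of the gene (x axis, kb, in 5 classes). Coloured lines are means over all bins of the 10 genes, repeated values included, with SD over the samples of each group. Grey lines are single genes in 0x. In 0x the mean rises from 7.80% in promoters to 79.4% beyond 10 kb, and the 4 groups follow the same profile.

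The comparison with 0x asked whether the number of cycles left a mark at these genes. No promoter passed the test. Of the 10 promoters, 7 could be tested, and 0 passed an adjusted p of 0.05 by limma, whether 2x, 4x, 10x or the slope over cycles was tested, with 0 at an unadjusted p under 0.05. Over all 15657 promoters tested, 0.0128% passed for 2x, 0% for 4x, 0.0192% for 10x and 0% for the slope. At the unadjusted threshold the shares were 3.3%, 3.77%, 5.89% and 3.58%. The median difference over the 7 promoters was -0.35 percentage points (2x), 1.93 (4x) and -0.57 (10x), beside 0.22, -0.06 and 0.01 over all promoters.

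The Meis1 promoter (3 bins) had the lowest p of these tests. It was at 1.48%, 17.99%, 2.06% and 3.87% in the 0x samples. In 2x the lowest, median and highest were 0%, 0.73% and 1.11%, and in 10x 0.22%, 0.87% and 3.90%. The 2x samples were all below the 0x samples, but sample 02 of 0x set most of the difference. The difference was -5.74 points in 2x (SE 2.98, adjusted p = 1, limma) and -4.84 in 10x (SE 3.003, adjusted p = 0.864, limma). Without sample 02 they were -1.86 and -0.96 points. No other promoter of the 7 was separate from 0x in any group. Over all promoters, 0.671% were separate from 0x for 2x, 2.2% for 4x and 1.35% for 10x.

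The largest promoter difference rested on 1 sample. The Gata2 promoter (2 bins) was at 0.88%, 0%, 0.86% and 0.44% in 0x and at 8.14%, 0.30%, 0% and 50% in 4x. The difference of 14.1 points (SE 10.8, adjusted p = 0.977, limma) became 2.27 without sample 20 of 4x. In 10x, Gata2 ranged from 0% to 2.86% and differed from 0x by 0.82 points (SE 0.80). The other promoters differed from 0x in 10x by 0.61 points (Tal1, SE 3.30), -0.07 (Fli1, SE 1.43), -0.57 (Runx1, SE 2.37), -0.80 (Mecom, SE 1.03) and -2.14 (Lmo2, SE 2.13). None of these exceeded the spread between samples.

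**Figure D4:**
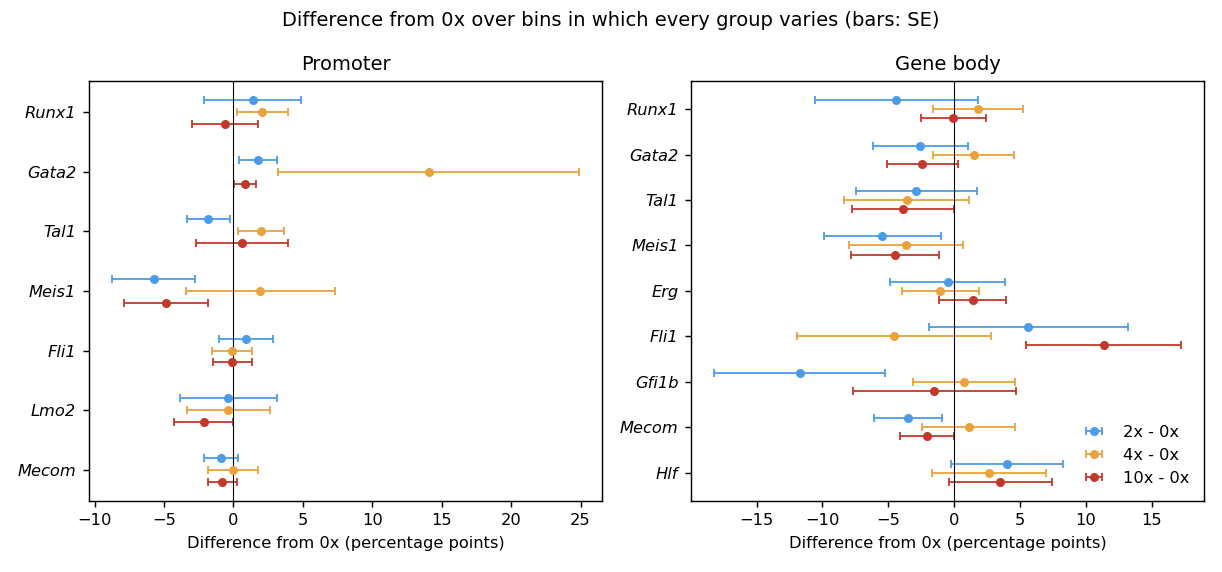
Difference from 0x (x axis, percentage points, with SE) for each gene (y axis) over bins in which every group varies, in promoters (left) and gene bodies (right), with 2x, 4x and 10x in colour. No difference passed the adjusted threshold, and the wide bar of Gata2 in 4x rests on 1 sample at 50%.

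No gene body passed the test either. Of the 10 gene bodies 9 could be tested, with 0 called and 0 at an unadjusted p under 0.05 in each of the 4 tests by limma. Over all 11980 gene bodies, 0.00835% were called for 2x, 0% for 4x, 0.0584% for 10x and 0.00835% for the slope, and 4.25%, 4.31%, 8% and 4.63% had an unadjusted p under 0.05. The median difference of the 9 was -2.87 points (2x), 0.75 (4x) and -1.51 (10x), beside 0.10, 0.71 and 1.10 over all gene bodies. None of the 9 was separate from 0x, which 0.693% of all gene bodies were for 2x, 2.2% for 4x and 1.73% for 10x.

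Fli1 and Gfi1b had the largest gene body differences. Fli1 (3 bins) was at 81.0%, 95.5%, 64.6% and 65.5% in 0x, and in 10x its lowest, median and highest samples were at 79.4%, 88.3% and 93.6%. The 10x samples were narrower and lay within the upper range of 0x. The difference was 11.3 points (SE 5.87, adjusted p = 0.669, limma). It differed between the label series, at -4.197 points among samples numbered 01 to 12 and 24.9 among samples 13 to 34. Gfi1b (2 bins) was at 69.4%, 69.5%, 71.6% and 78.8% in 0x. In 2x its lowest, median and highest samples were at 40.1%, 64.9% and 74.2%, a difference of -11.7 points (SE 6.46, adjusted p = 0.999, limma).

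The remaining gene bodies differed less from 0x in 10x. Hlf differed from 0x by 3.50 points (SE 3.88), Erg by 1.39 (SE 2.53), Runx1 by -0.09 (SE 2.46), Mecom by -2.07 (SE 2.09), Gata2 by -2.41 (SE 2.71), Tal1 by -3.89 (SE 3.88) and Meis1 by -4.51 (SE 3.32). Erg (10 bins) and Mecom (13 bins) rest on the most bins. Mecom was at 60.4% ± 3.53 (SD, n = 4) in 0x and 58.3% ± 2.22 (n = 6) in 10x.

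Single bins gave the same result. Of the 82 bins, 0 were called in 2x, 4x, 10x or the slope by limma, at an adjusted p under 0.05 and a difference of at least 10 points (no minimum for the slope). The lowest adjusted p was 0.626. Over all 84131 bins tested, 0.00357% were called for 2x, 0.00713% for 4x, 0.0131% for 10x and 0.00119% for the slope. With an unadjusted p under 0.05 in its place, 1 of the 82 passed in 2x (beside 2.86% of all bins), 4 in 4x (2.85%), 2 in 10x (4.18%) and 1 in the slope (3.56%). These bins are described below as values, since none passed the adjusted threshold. By the rule for named bins, the Meis1 and Gfi1b bins are named, in which the groups did not overlap. The rule itself required this, and the share of all tested bins without overlap was not determined. The other 5 were chosen after their values had been seen. The sequences are those of the plus strand of GRCm38.p6, with CpG sites in capitals.
Meis1 coding exon bin, chr11:19014300-19014399: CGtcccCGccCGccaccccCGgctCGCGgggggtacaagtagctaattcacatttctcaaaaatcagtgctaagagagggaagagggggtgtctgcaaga
Gfi1b coding exon bin, chr2:28611600-28611699: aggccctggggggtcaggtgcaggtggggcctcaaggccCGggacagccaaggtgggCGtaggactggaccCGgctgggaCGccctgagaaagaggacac
Gata2 upstream bin, chr6:88190900-88190999: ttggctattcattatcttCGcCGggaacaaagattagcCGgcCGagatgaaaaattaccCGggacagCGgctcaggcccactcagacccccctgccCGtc

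The Meis1 bin lies 1.63 kb downstream of the nearest TSS, a predicted one within the gene. It holds 6 CpG sites, at one end of the bin. Its 0x samples were at 5.03%, 28.5%, 4.95% and 22.3%. In 2x the lowest, median and highest samples were at 0%, 1.61% and 26.3%, the 4x samples were at 5.74%, 1.59%, 0% and 0%, and 10x ranged from 0% to 2.61% with a median of 2.01%. All 6 samples of 10x were below all 4 of 0x. The difference in 10x was -13.5 points (SE 4.54, adjusted p = 0.626, limma) and the slope -1.02 points per cycle (SE 0.46, adjusted p = 0.975, limma). The bin also lies in Gm16141 or within 5 kb of it.

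The Gfi1b bin lies 10.3 kb inside the gene and holds 4 CpG sites. It was at 58.9%, 58.6%, 56.1% and 57.7% in 0x and at 60.0%, 61.4%, 72.0% and 78.8% in 4x, all above 0x. The difference was 10.2 points (SE 4.29, adjusted p = 0.975, limma). In 10x the samples ranged from 37.0% to 100% around a median of 63.0%, and in 2x from 0% to 68.4% around 56.4%. Every treated group spread more widely than 0x in this bin. It was named because 4x did not overlap 0x, which is more easily met where 0x is narrow. Across the 82 tested bins the widest median SD belonged to 0x (8.81 points) and the narrowest to 10x (4.94 points). Whether the spread changed with treatment was not tested.

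The Gata2 bin lies 2.94 kb upstream of the first TSS and holds 7 CpG sites. It was at 27.0%, 32.3%, 15.4% and 42.9% in 0x, and in 2x its lowest, median and highest samples were at 0%, 7.39% and 20.8%, a difference of -20.3 points (SE 6.53, adjusted p = 0.998, limma). In 4x it was at 16.7%, 59.4%, 6.04% and 14.9%, and in 10x it ranged from 0% to 39.5% around 4.78%. All 3 treated groups overlapped 0x.

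The other bins lay in introns. In Mecom (chr3:30466700-30466799, 1 CpG site) 3 of the 4 samples of 0x were at 100% and the other at 62.5%, and the 10x samples ranged from 45.7% to 85.7% around a median of 67.1%. In Hlf, one bin (chr11:90347700-90347799, 1 CpG site) was at 55.1%, 67.6%, 88.3% and 41.5% in 0x and at 85.2%, 91.3%, 100% and 100% in 4x, while another (chr11:90358800-90358899, 4 CpG sites) went from 100%, 66.7%, 64.9% and 91.8% to 35.9%, 63.4%, 56.5% and 67.9%. These 2 Hlf bins thus differed from 0x in opposite directions, by 31.02 and -24.9 points. In Runx1 (chr16:92614700-92614799, 3 CpG sites), 0x was at 77.9%, 76.5%, 91.3% and 93.0% and 4x at 91.2%, 95.3%, 100% and 100%. In all 4 of these bins the groups overlapped.

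**Figure D5:**
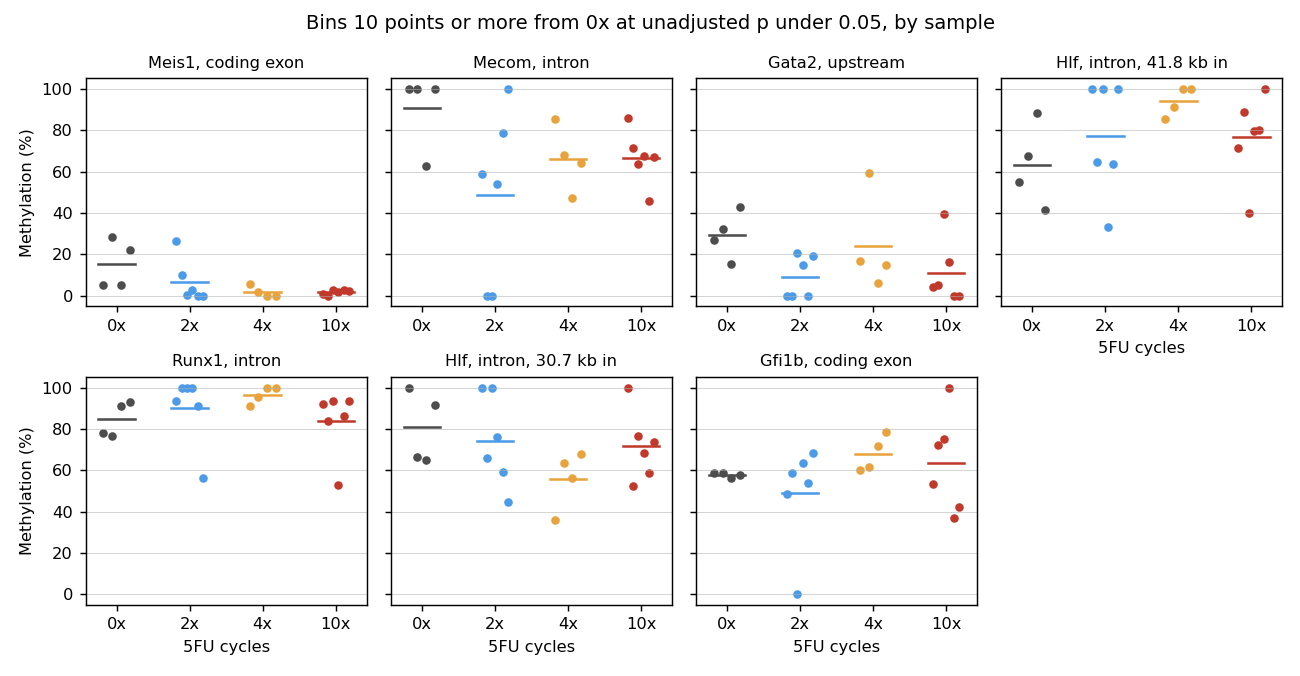
Methylation (y axis, %) in each sample of 0x, 2x, 4x and 10x (x axis) for the 7 bins with at least 10 points from 0x and an unadjusted p under 0.05, with group means as bars. In the Meis1 bin all 10x samples lie at or under 2.61%, and in the Gfi1b bin all 4x samples lie above 0x.

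A wider set, which added the bins in which a group was at 0 or 100 throughout, gave calls that cannot be separated from filled values. Of the bins of the 10 genes 4 of 207 were called for 2x, 2 of 266 for 4x, 3 of 252 for 10x and 3 of 298 for the slope by limma, beside 2.37%, 1.06%, 1.09% and 0.286% of all such bins. These were 7 bins, of which 5 went from 0 to 100 or from 100 to 0 between whole groups. How many samples of a group had been measured in them is not known.
Mecom intron bin, chr3:30151000-30151099: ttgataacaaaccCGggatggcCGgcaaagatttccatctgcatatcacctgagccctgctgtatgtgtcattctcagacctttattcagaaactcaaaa
Hlf intron bin, chr11:90377000-90377099: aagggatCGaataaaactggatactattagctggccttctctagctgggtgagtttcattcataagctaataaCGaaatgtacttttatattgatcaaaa
Gata2 upstream bin, chr6:88189700-88189799: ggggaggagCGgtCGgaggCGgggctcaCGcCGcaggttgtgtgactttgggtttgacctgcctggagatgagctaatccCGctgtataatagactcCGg

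The Mecom bin (2 CpG sites) was at 0 in all 4 samples of 0x and at 100 in all 16 treated samples. The Hlf bin (2 CpG sites) was at 100 in all samples of 0x, 2x and 4x and at 0 in all 6 of 10x. The Gata2 bin, 4.14 kb upstream with 7 CpG sites, was at 0 in all samples of 0x, 2x and 4x. In 10x it was at 5.13%, 4.31%, 4.29%, 4.202%, 5.95% and 1.80%, each a different value, and its slope was 0.48 points per cycle (adjusted p = 0.0026, limma). An Erg intron bin (chr16:95447200-95447299, 4 CpG sites) was at 100%, 77.1%, 100% and 83.6% in 0x, at 100% in all of 2x, at 0%, 71.4%, 0% and 30% in 4x and at 0 in all of 10x. The other 3 bins, in introns of Mecom and Erg, went to or from 0 and 100 in 2x, and 1 of them also in 4x.

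Bins with repeated values were kept apart and not tested. Of the 491 such bins, 207 had a repeated value within 0x, 299 within 2x, 162 within 4x and 224 within 10x. In 151 of them all 6 samples of 2x had one value, against 70 in 10x. A difference of 10 points or more above 0x was seen for 103 bins of 2x, 100 of 4x and 114 of 10x (21.0%, 20.4% and 23.2%), beside 20.3%, 21.5% and 21.9% of the 434363 such bins in the series. For 10 points or more below 0x the shares were 20.6%, 18.3% and 19.8%, beside 20.9%, 19.8% and 19.1%. The shares were near those of the series. In the 402 such bins of gene bodies the mean difference of 10x from 0x was 3.32 points, with a median of 0. At Lmo2 all 6 samples of 2x had the same gene body mean of 62.1%.

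When the bins with repeated values were added to the fit, calls were frequent over the whole series. Of the bins of the 10 genes that vary, 117 of 568 (20.6%) were called for 2x, 76 of 637 (11.9%) for 4x, 89 of 632 (14.1%) for 10x and 80 of 771 (10.4%) for the slope by limma. The shares over all bins of the series were 20.3%, 12.2%, 13.7% and 9.23%, close to those of the 10 genes. Of 9 promoters 3 were called for 2x (Erg and Fli1 higher, Gata2 lower), 2 for 4x (Fli1 higher, Mecom lower) and 0 for 10x and the slope, beside 24.3%, 14.8%, 16.8% and 9.58% of all promoters. Of 10 gene bodies 5, 1, 3 and 1 were called, beside 35.6%, 21%, 27.5% and 18.1% of all gene bodies. With repeated values left out as missing, the promoters called were 0, 3, 1 and 0 of 9, beside 12%, 7.76%, 7.93% and 5.38%, and the gene bodies 4, 0, 1 and 1 of 10, beside 20.6%, 10.5%, 14.2% and 7.79%. In the wider set without repeated values, 0 promoters of the 10 genes were called, beside 2.6%, 1.02%, 1.15% and 0.381% of all promoters. In that set 1 of 9 gene bodies was called for 2x (Mecom), 0 for 4x, 1 for 10x and 1 for the slope (Hlf in both), beside 10.3%, 2.42%, 4.35% and 1.13%. The Hlf gene body was lower in 10x in that set, by 8.64 points (adjusted p = 0.0252, limma), and higher by 4.41 points (adjusted p = 0.015, limma) with all deposited bins that vary. The lower value includes the Hlf intron bin at 100 in all samples of 0x and at 0 in all 6 of 10x. It therefore cannot be separated from filled values.

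Partner genes were taken from a list of 23 factors that act with the 10 genes, such as Lyl1, Ldb1 and Cbfb. Of 18 promoters tested 0 were called in any of the 4 tests by limma. In 10x and in the slope 2 had an unadjusted p under 0.05, both lower than 0x in 10x, Prdm16 by 4.28 points (adjusted p = 0.508, limma) and Gata3 by 7.63 (adjusted p = 0.648, limma). Of 21 gene bodies tested 1 was called, in 10x and in the slope, that of Hoxb4, a homeobox gene that expands HSCs when overexpressed. It rests on 1 bin (chr11:96320500-96320599, 3 CpG sites, 2.28 kb inside the gene), which also lies within the Hoxb3 record. The bin was at 30.9%, 46.5%, 41.4% and 47.5% in 0x, between 20.4% and 38.5% in 2x, at 23.3%, 32.6%, 13.5% and 14.1% in 4x, and between 0.28% and 15.9% in 10x. All samples of 10x were below those of 0x. The difference was -31.1 points in 10x (SE 3.97, adjusted p = 0.0395, limma) and the slope -2.75 points per cycle (SE 0.43, adjusted p = 0.0360, limma). Of its 10 gene body bins this was the only one in which every group varied, and over all those that vary the 10x difference was 3.13 points. The call was also lost with the label series as a block, where the difference was -31.2 points.

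Markers of other cells were checked on promoters. In 0x, Cd3e (1 bin) was at 100%, Lck at 78.3% and Elane at 93.8%, and the HSC surface genes Kit, Procr and Esam were at 0.77%, 0.0085% and 2.28%. Of these lists 0 promoters and 0 gene bodies were called by limma in any test. Over all bins of the series the mean was 76.3% (0x), 76.8% (2x), 76.8% (4x) and 77.3% (10x).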

How the data were processed

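Methylation was measured by RRBS in 20 HSC samples, and 1 value per 100 bp bin and sample had been deposited as percent methylation. For these values the authors used Trim Galore 0.4.3 (base quality over 25), Bismark 0.23.1 on mm10 and methylKit 1.22.0 (at least 10 reads), and where a bin was missing they put the group mean. Read numbers are not in these values, so the depth is unknown and no counting interval is given. Groups were taken from the sample titles.

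Bins cover 100 bases from the stated start, 1-based: 0.0205% hold no CpG site in GRCm38.p6, against 0.198% when shifted by 1 base. Genes, transcripts and TSS were those of RefSeq, predicted transcripts included. Percents per bin, and means per promoter and gene body, were fitted with limma 3.58.1 (R 4.3.3) over all bins, promoters or gene bodies, each group against 0x and as a slope over cycles, with Benjamini-Hochberg adjustment, after a test on simulated data. The members and lists were chosen with earlier results of these data known. Named bins were those called, or, under 3 per comparison, up to 3 of lowest p with 10 points and no overlap. Alternatives changed the bin set, label series, scale, centring, spread, promoter window and samples. Remaining steps used Python 3.11.15, numpy 2.4.6, pandas 2.3.3, matplotlib 3.10.9 and the data.table package (1.17.8). Some listed genes are not reported here.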

Additional observations from a re-analysis of the deposited data

Results flagged for a closer look

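In 11 of 96 groups of samples tested, the highest or lowest sample stood far from the others by Dixon's criterion. Chance meets it in about 5% of groups only where values are independent and normally distributed. These percents are bounded, and in some of the groups all other samples shared a value at the end of the scale. The 11 groups therefore cannot be compared with that share. Among promoters, sample 20 of 4x was at 50% at Gata2, with the nearest sample at 8.14%. At Tal1, sample 32 of 10x was at 17.2% (nearest 4.56%), at Meis1 sample 02 of 0x at 17.99% (nearest 3.87%) and at Lmo2 sample 03 of 2x at 15.8% (nearest 4.65%).

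The Tal1 gene body, which rests on 1 testable bin, was set apart in 3 groups. Sample 02 of 0x was at 19.7% with the other 0x samples at 0, sample 16 of 2x at 12.4% with the next at 0, and sample 11 of 10x at 5.26% with the next at 0.93%. Among single bins, sample 13 of 0x was at 62.5% in the Mecom bin (chr3:30466700-30466799) with the other samples at 100. In the Runx1 bin (chr16:92614700-92614799), sample 18 of 2x was at 56.5% (nearest 91.1%) and sample 32 of 10x at 52.8% (nearest 83.6%). In the Gfi1b bin (chr2:28611600-28611699), sample 15 of 2x was at 0, with the nearest at 48.5%.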

How the results depend on the processing

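The main limits are the number of testable bins, which is 1 to 13 for each tested promoter or gene body, and the filled values. These are unmarked and may remain in the tested bins. The depth behind each percent is unknown. No paired analysis was possible because the replicate numbers are not shared between groups. The count of promoters, gene bodies and bins of the 10 genes called was 0 and stayed at 0 without any 1 sample, with the label series as a block, on the log2 ratio scale, after centring, with a variance trend, with a spread shared by all 4 groups and with other promoter windows. It depended on which bins were included. With groups at 0 or 100 throughout included, 4 of 207 bins were called for 2x, 2 of 266 for 4x, 3 of 252 for 10x and 3 of 298 for the slope, and 1 of 9 gene bodies each for 2x, 10x and the slope. With all deposited bins that vary, the bins called were 117 of 568, 76 of 637, 89 of 632 and 80 of 771, the promoters 3 of 9 for 2x and 2 of 9 for 4x, and the gene bodies 5, 1, 3 and 1 of 10. With repeated values left out as missing, the promoters called were 3 of 9 for 4x and 1 of 9 for 10x, and the gene bodies 4 of 10 for 2x, 1 of 10 for 10x and 1 of 10 for the slope. The cause was not tested.

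Some differences of 10x from 0x turned sign. None of them passed the test on bins in which every group varies, and 3 of the turned values passed it under the setting that turned them, the Hlf gene body with groups at 0 or 100 throughout included (adjusted p = 0.0252, limma), the Runx1 gene body with all deposited bins (adjusted p = 0.0153, limma) and the Fli1 promoter with repeated values missing (adjusted p = 0.0486, limma). With all deposited bins, Hlf was also called in the opposite direction, at 4.41 points. With groups at 0 or 100 throughout included, the promoters of Runx1 (2.38 points), Tal1 (-0.59) and Fli1 (2.55) and the gene bodies of Runx1 (1.12), Erg (-3.18), Mecom (3.84) and Hlf (-8.64) turned sign. This Hlf value includes a bin at 100 in all samples of 0x and at 0 in all of 10x, which cannot be separated from filled values. With all deposited bins that vary, these were the promoters of Gata2 (-2.26), Tal1 (-1.02) and Fli1 (0.64) and the gene bodies of Runx1 (2.83), Gata2 (0.97), Meis1 (1.36), Erg (-1.01) and Mecom (2.69). With repeated values left out as missing, these were the promoters of Gata2 (-0.38), Tal1 (-0.42), Fli1 (4.58) and Mecom (2.24) and the gene bodies of Runx1 (2.80), Meis1 (1.54), Erg (-1.60) and Mecom (2.52). On the log2 ratio scale the Runx1 gene body (0.015) and the Tal1 promoter (-0.29) turned, after centring the promoters of Gata2 (-0.40) and Tal1 (-0.61), and with the label series as a block the Fli1 promoter (0.067). With a promoter window of 0.5 kb the promoters of Tal1 (-2.38) and Lmo2 (1.88) and the Tal1 gene body (2.10) turned, and with 2 kb the promoters of Gata2 (-1.07) and Mecom (0.33) and the Meis1 gene body (0.19). With curated TSS alone, chosen after seeing the data, the Tal1 promoter was at -0.11. In 4x the Gata2 promoter was at -4.26 with all deposited bins and at -1.18 with repeated values missing. For Hoxb4, whose gene body was called, the difference in 10x was 3.13 and 1.44 under these settings, and the slope 0.10 with all deposited bins.

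Leaving out 1 sample at a time turned the sign of the 10x difference in the promoters of Runx1 (-2.03 to 0.74), Tal1 (-1.98 to 1.77), Fli1 (-0.89 to 0.55), Lmo2 (-3.44 to 0.26) and Mecom (-1.23 to 0.075) and in the gene bodies of Runx1 (-1.75 to 0.91), Tal1 (-5.54 to 1.03) and Gfi1b (-5.15 to 1.26). Within the label series, compared after seeing the data, 10 of the 16 promoters and gene bodies had opposite signs in the pair of series. For example, the Runx1 promoter differed by 4.62 points among samples numbered 01 to 12 and by -3.90 among 13 to 34, and the Meis1 gene body by -9.55 and 0.54.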
